A study of Mus musculus with 12 samples.

Results

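The genes described here are the matrix proteases and the tissue inhibitors of metalloproteinases (Timps) of 3T3-L1 cells, an established mouse preadipocyte line that stores fat after hormonal induction. Members were all genes of the deposited count table whose symbol begins with Mmp, Adam, Adamts or Adamtsl followed by a number, the genes Timp1 to Timp4, and Plat, Plaur, Bmp1 and Htra1. This rule matched names only, but it was chosen with earlier results of these data known. It found 38 of the 11022 genes of the table: 9 Mmp genes, 4 Timp genes, 9 Adam genes, 10 Adamts genes, 2 Adamtsl genes and these 4 others. Plau, which encodes urokinase, was also sought and was not analysed here. RNA was measured in 12 libraries, 3 per group, to ask how breast cancer cells lacking p53 affect fat cell formation. All cells sequenced were 3T3-L1 cells of wild-type genotype. The first group was undifferentiated and grew in 10% calf serum. The regular group was differentiated in 10% fetal bovine serum, and induced for 2 days by 2 µM rosiglitazone, 1 µM dexamethasone, 1 µg/mL insulin and 0.5 mM isobutylmethylxanthine, then kept in insulin for 2 days before maintenance medium. The other two groups went through the same steps with each medium mixed in equal parts with filtered medium conditioned by WEP breast cancer cells, either p53 WT (WT CM) or p53 KO (KO CM). The doses are those of the medium before mixing, so any dilution of the inducers by conditioned medium, and the change from calf to fetal bovine serum, cannot be told apart from the groups. The labels do not say whether replicates were separate cultures, so a p-value covers the variation among libraries, part of which may be technical.

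Matrix metalloproteinases (Mmps) are zinc enzymes, most of them secreted as inactive precursors, that cut collagens and other matrix proteins, and Timps block them by binding the active site. Adams are membrane-anchored relatives, several of which release growth factors, cytokines and receptors from the cell surface, whereas Adamts enzymes are secreted and trim proteoglycans, procollagens and microfibrils. Plasminogen activators generate plasmin, which cleaves matrix and activates some Mmp precursors. A preadipocyte that becomes a fat cell exchanges a fibrillar matrix for a basement membrane, and these enzymes take part in that exchange.

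Libraries held 1289754 to 1722617 UMIs (molecules counted once) in undifferentiated cells, 1101307 to 2589045 in the regular group, 1551876 to 2278126 under WT CM and 987496 to 1376688 under KO CM. Replicate 3 of WT CM stood apart from its group, with a chi-square per degree of freedom over genes of 6.2 against replicate 1 and 5.89 against replicate 2, compared with 1.39 to 2.6 for all other pairs of replicates. The summed level of 6 adipocyte markers, Adipoq, Cebpa, Cidec, Fabp4, Plin1 and Pparg, was 97.06 to 114.6 CPM (the UMI count scaled to TMM-normalized library size) in undifferentiated cells, 25180 to 27350 CPM in the regular group, 16430 to 17040 CPM with WT CM and 8341 to 9491 CPM with KO CM. That of 5 preadipocyte markers, Thy1, Pdgfra, Ly6a, Dlk1 and Cd34, was 763.8 to 830.3, 191 to 252.9, 1121 to 1154 and 1462 to 1572 CPM in the same order. The 5 did not move together. With WT CM, Ly6a and Pdgfra had means of 537.5 and 205.3 CPM, above the 277.4 and 56.7 CPM of undifferentiated cells. Thy1, Dlk1 and Cd34 were lower, at 386.8, 6.82 and 0 CPM against 443.3, 8.10 and 2.71 CPM. Both sums differed between the groups compared below, and their part in the results was not tested. In bulk RNA, fewer cells of a type and less RNA per cell cannot be told apart. Of 7 macrophage markers 3 were in the table, at a sum of 8.35 to 18.8 CPM over all libraries, and Ptprc, Adgre1, Itgam and Fcgr1 were not. Of 8 epithelial markers 3 were in the table, at 45.7 to 56.06 CPM in the regular group and at most 23.9 CPM elsewhere, and none of 5 endothelial markers was.

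The protease and inhibitor genes took 0.487 to 0.531% of the UMIs of undifferentiated libraries, 0.208 to 0.227% of regular ones, 0.443 to 0.484% under WT CM and 0.554 to 0.613% under KO CM. The regular group therefore had the lowest share and KO CM the highest, and no 2 groups overlapped. This share is led by the most counted genes. In undifferentiated cells these were Adamts1, Mmp2, Timp2 and Mmp14, with 6733, 3692, 2704 and 2569 UMIs. A total of 35 members passed the filter on low counts, and Timp4, Mmp28 and Adam33 did not.

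With regular differentiation, 23 of the 35 tested members fell and 7 rose by edgeR's quasi-likelihood test at an adjusted p under 0.05, while of all 9378 genes tested 28% fell and 29.6% rose. The median log2 difference was -1.02 over the members and -0.01 over all genes. With WT CM against regular differentiation, 24 members were higher and 3 lower, against 17.2% and 15.4% of all genes, at medians of 1.13 and 0.01. With KO CM against regular differentiation, 27 were higher and 5 lower, against 22.2% and 21% of all genes, at medians of 1.29 and 0.00. These comparisons share the regular libraries, so their values are given side by side. KO CM against WT CM gave 9 members higher and 1 lower, against 5.86% and 6.62% of all genes, at medians of 0.22 and 0.01. With total counts in place of TMM that split was 7 higher and 2 lower.

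Against undifferentiated cells, 15 members were higher and 7 lower with WT CM, where 27.9% of all genes were higher and 20.7% lower, and with total counts in place of TMM the split was 13 and 11. With KO CM 20 were higher and 4 lower, against 26% and 17.7% of all genes, and with total counts 15 and 5. The member medians were 0.11 and 0.60, those of all genes 0.06 and 0.08. Without WT CM replicate 3, the counts were 25 higher and 1 lower for WT CM against regular, 10 and 1 for KO CM against WT CM, and 14 and 6 for WT CM against undifferentiated cells. With total counts the all-gene median was -0.17 for regular against undifferentiated cells (-0.01 with TMM), -0.14 for WT CM (0.06 with TMM) and -0.20 for KO CM (0.08 with TMM) against undifferentiated cells, and -0.12 for KO CM against regular (0.00 with TMM). Over all genes, scaling by total counts gave 2253 higher and 3332 lower where TMM gave 2774 and 2630 (regular against undifferentiated), 1693 and 2463 where TMM gave 2080 and 1971 (KO CM against regular). It gave 356 and 818 where TMM gave 550 and 621 (KO CM against WT CM). Against undifferentiated cells it gave 1902 and 3004 in place of 2612 and 1942 for WT CM, and 1502 and 3039 in place of 2442 and 1659 for KO CM. No called member difference changed sign under any alternative run.

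**Figure D1:**
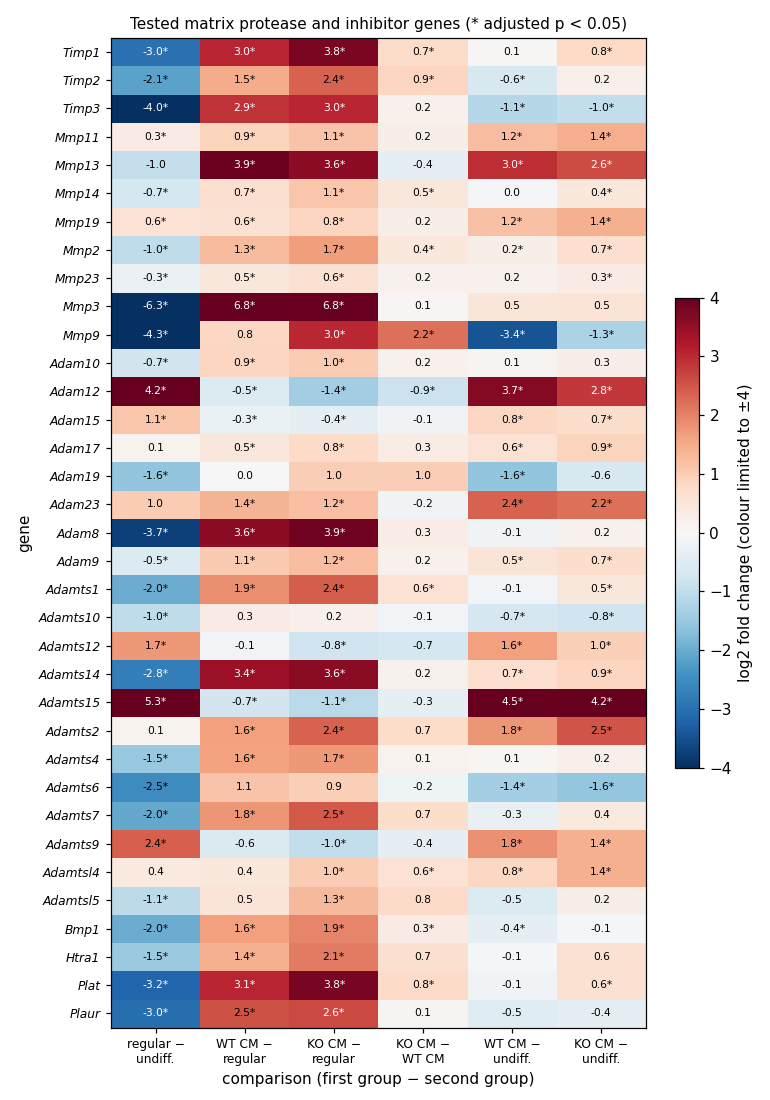
Log2 differences of the 35 tested members (rows, by class) in the 6 comparisons (columns); an asterisk marks an edgeR adjusted p under 0.05 and colours are limited to 4 in either direction. The first column is mostly negative, with 23 members lower, and the next columns, each medium against regular, are mostly positive, with 24 and 27 higher.

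All 3 tested Timps fell with regular differentiation and were higher with both media than in the regular group. Of all genes, 28% fell with regular differentiation, and 17.2% and 22.2% were higher with WT CM and KO CM than in the regular group. Timp1 (chrX:20870166-20874735, plus strand in GRCm38, inside the gene Syn1 without shared exons at its 3′ end), a secreted inhibitor of most Mmps, was at 203, 246 and 204 CPM before differentiation, 26.5, 22.6 and 34.0 CPM in the regular group, 234, 248 and 197 CPM under WT CM and 365, 392 and 365 CPM under KO CM. Regular libraries were lowest with no overlap, WT CM libraries overlapped the undifferentiated ones, and KO CM libraries were above all others. Here and below, such separation describes the libraries and adds no support to a call. The share of all genes that show it was not computed. Timp1 fell by 2.99 ± 0.13 (log2 difference ± SE) with regular differentiation. It was higher by 3.04 ± 0.13 with WT CM and 3.77 ± 0.13 with KO CM against regular differentiation (edgeR adjusted p at most 2.41e-23). KO CM exceeded undifferentiated cells by 0.78 ± 0.10 (edgeR adjusted p = 1.42e-08), whereas WT CM differed from them by 0.06 ± 0.10.

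Timp2 (chr11:118301069-118355740, minus strand), which inhibits Mmps and also takes part in activating the Mmp2 precursor at the cell surface, was at 542, 501 and 536 CPM before differentiation, 97.8, 118 and 138 CPM in the regular group, 331, 304 and 371 CPM under WT CM and 630.1, 551 and 642 CPM under KO CM. Here WT CM libraries lay between the regular and the undifferentiated ones, and KO CM libraries were above the undifferentiated ones on a log2 difference of 0.21 ± 0.09 that did not pass the test. It fell by 2.14 ± 0.10 with regular differentiation and was higher by 1.5 ± 0.10 with WT CM and 2.35 ± 0.10 with KO CM than in the regular group (edgeR adjusted p at most 2.44e-16). WT CM stayed below undifferentiated cells, at a log2 difference of -0.65 ± 0.09 (edgeR adjusted p = 1.48e-07).

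Timp3, which binds to the matrix and also inhibits Adam17 and Adamts enzymes, was at 48.2, 39.7 and 42.1 CPM before differentiation, 0.914, 3.12 and 2.98 CPM in the regular group, 22.5, 19.96 and 17.6 CPM under WT CM and 35.7, 17.8 and 14.1 CPM under KO CM. Both CM groups lay between the regular and the undifferentiated libraries, with KO CM replicate 1 above the other two. Its log2 difference was -4.02 ± 0.32 with regular differentiation, 2.88 ± 0.37 for WT CM and 3.04 ± 0.39 for KO CM against regular, and -1.13 ± 0.21 and -0.97 ± 0.23 against undifferentiated cells (edgeR adjusted p at most 0.000633). Exons of Syn3, on the opposite strand, cover the last 500 bases of Timp3. The use of strand in counting is not given in the sources used here, and its value is uncertain, although Syn3 is not in the table.

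Timp4, an inhibitor known from heart and fat tissue, went the other way at low counts. Its UMIs were 0, 0 and 0 in undifferentiated libraries, 10, 14 and 18 in regular ones, 3, 1 and 11 with WT CM and 1, 1 and 2 with KO CM. The regular level was at least 14.4-fold higher than 3 counts over the undifferentiated group, a floor of 0.586 CPM. Only without the filter on low counts was it tested, and it was then lower than regular at log2 differences of -1.51 ± 0.50 with WT CM and -2.61 ± 0.68 with KO CM (edgeR adjusted p = 0.017 and 0.00147).

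**Figure D2:**
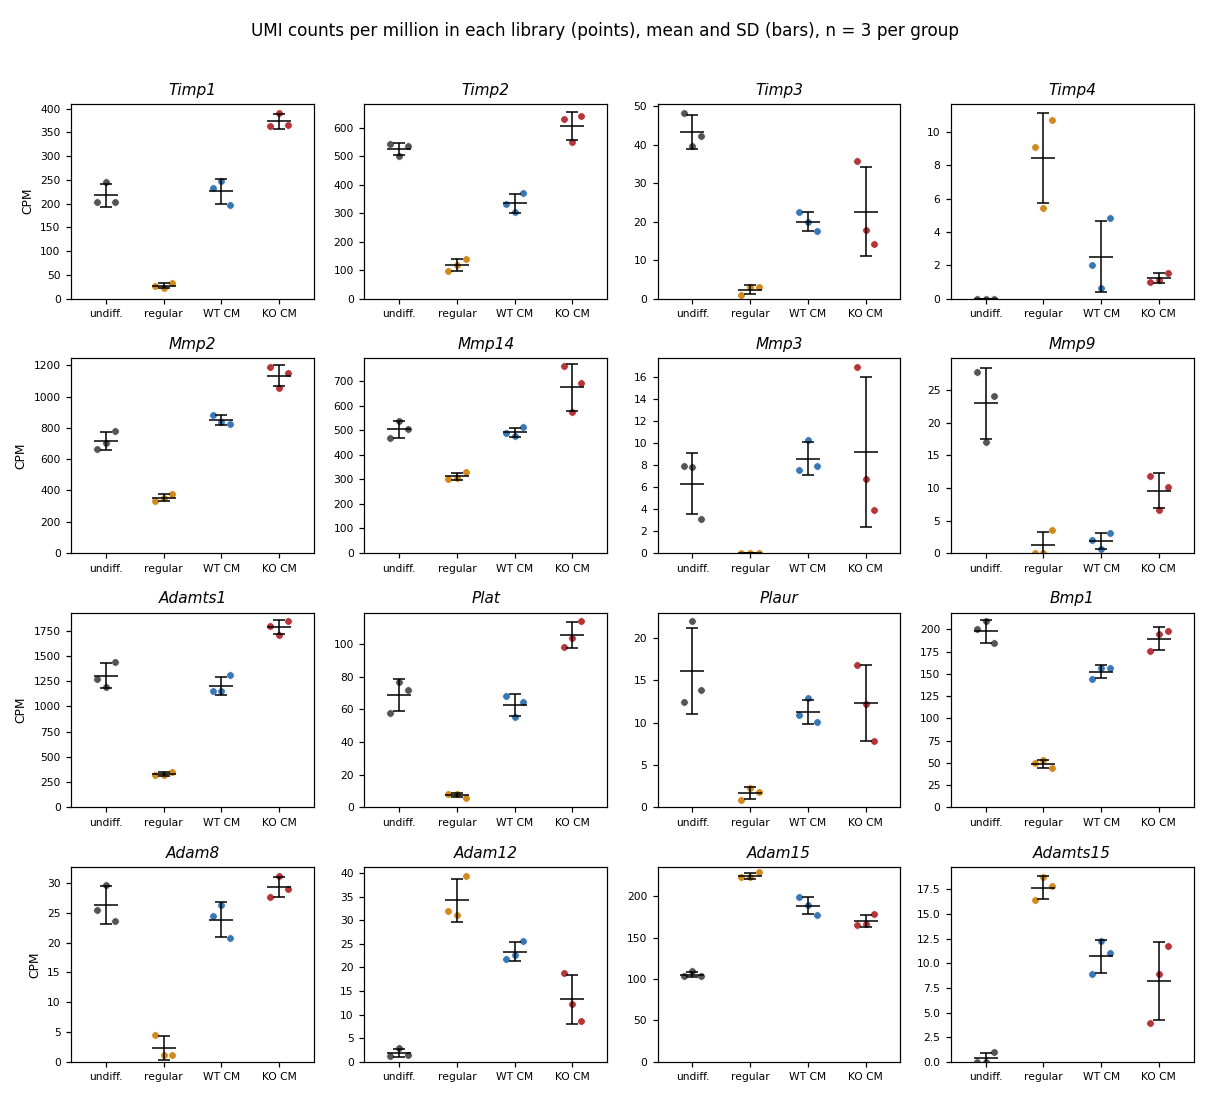
Levels in CPM per library (points) with the mean and SD of 3 libraries for 16 genes, by group. Timp1, Timp2, Mmp2 and Adamts1 are lowest after regular differentiation and highest with KO CM, while Adam12 and Adam15 are highest after regular differentiation.

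Of the Mmp genes, 5 of 8 tested members fell and 2 rose with regular differentiation, and 7 were higher with WT CM and all 8 with KO CM against regular differentiation. Of all genes 28% fell and 29.6% rose with regular differentiation, so the share of Mmp genes that rose was near that of all genes. With WT CM and KO CM, 17.2% and 22.2% of all genes were higher. Mmp2 (chr8:92827291-92853420, plus strand), the gelatinase that also cuts basement membrane collagen, was at 668, 703 and 783 CPM before differentiation, 329.9, 354 and 378 CPM in the regular group, 884, 837 and 824 CPM under WT CM and 1189.9, 1058 and 1153 CPM under KO CM. The 4 groups did not overlap. It fell by 1.02 ± 0.09 with regular differentiation, and was higher than in the regular group by 1.26 ± 0.09 with WT CM and 1.68 ± 0.09 with KO CM (edgeR adjusted p at most 3.06e-14). Above undifferentiated cells it was 0.66 ± 0.08 with KO CM (edgeR adjusted p = 7.64e-09) and 0.24 ± 0.08 with WT CM (edgeR adjusted p = 0.0144). The WT CM call was lost without undifferentiated replicate 1, regular replicate 2 or WT CM replicate 1 (edgeR adjusted p = 0.0924, 0.0776 and 0.0663) and with total counts, at 0.04 (adjusted p = 0.731). It was also lost with RLE size factors, without the filter on low counts and in a fit of those 2 groups alone (edgeR adjusted p = 0.0663, 0.066 and 0.101), and with DESeq2 (adjusted p = 0.0886).

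Mmp14 (chr14:54431612-54445364, plus strand), the membrane-bound enzyme that activates pro-Mmp2 and is needed in mice for fat cell growth in collagen, was at 468, 538 and 506 CPM before differentiation, 301, 306 and 329.8 CPM in the regular group, 489, 475 and 511 CPM under WT CM and 759.9, 572 and 692 CPM under KO CM. Regular libraries were lowest, WT CM overlapped undifferentiated cells, and KO CM was highest with no overlap. The log2 difference was -0.69 ± 0.09 with regular differentiation, 0.66 ± 0.09 for WT CM and 1.11 ± 0.09 for KO CM against regular (edgeR adjusted p at most 1.02e-07). KO CM was 0.42 ± 0.09 above undifferentiated cells (edgeR adjusted p = 0.000143), a call lost with total counts at 0.15 (adjusted p = 0.182). WT CM differed from undifferentiated cells by -0.03 ± 0.09.

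Mmp9, the gelatinase best known from inflammatory cells, was at 27.8, 17.0 and 24.2 CPM before differentiation, 0, 0 and 3.58 CPM in the regular group, 2.04, 0.644 and 3.08 CPM under WT CM and 11.9, 6.68 and 10.2 CPM under KO CM. Only 1 regular library had any UMIs, with 6 in replicate 3, and the CM libraries stayed below all undifferentiated ones. It fell by 4.27 ± 0.50 with regular differentiation and was 3.02 ± 0.64 above regular with KO CM (edgeR adjusted p at most 0.000208), against 0.83 ± 0.82 with WT CM. It was lower than undifferentiated cells, at a log2 difference of -3.44 ± 0.44 with WT CM and -1.25 ± 0.37 with KO CM (edgeR adjusted p at most 0.00560). These sizes rest on few counts. Without regular replicate 2 the differences were -3.45 for regular against undifferentiated cells and 2.13 for KO CM against regular. Without regular replicate 3 the regular group had no count, and the fitted -8.19 and 6.94 are no bound. Without WT CM replicate 3 the difference of WT CM from undifferentiated cells was -4.05.

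Mmp3, or stromelysin-1, and Mmp13, the main interstitial collagenase of rodents, both lie in the Mmp cluster of chromosome 9. Mmp3 had 14, 11 and 6 UMIs in undifferentiated libraries, 0, 0 and 0 in regular ones, 11, 16 and 18 with WT CM and 17, 6 and 5 with KO CM. Against the floor of 3 counts over the regular group, 0.562 CPM, it was at least 11.2-fold higher in undifferentiated cells, 15.3-fold with WT CM and 16.3-fold with KO CM (edgeR adjusted p at most 5.89e-06). The fitted log2 difference of KO CM from regular, 6.82 and no bound, was 6.07 without KO CM replicate 1. Mmp13 had 3, 1 and 2 UMIs in undifferentiated libraries, 0, 2 and 1 in regular ones, 13, 9 and 30 with WT CM and 12, 6 and 6 with KO CM. Both CM groups were above all other libraries. The ratio to the regular group was 17.5 with WT CM (95% counting interval 5.66 to 87.5) and 13.4 with KO CM (4.07 to 69.6), with edgeR adjusted p at most 4.73e-05. Above undifferentiated cells Mmp13 was higher by 2.96 ± 0.54 with WT CM and 2.61 ± 0.62 with KO CM on the log2 scale (edgeR adjusted p at most 0.000606).

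Mmp3, Mmp13 and Plaur, the urokinase receptor described below, are textbook carriers of AP-1 sites in their promoters, and Timp1 is regulated through both AP-1 and ETS factors in other settings. Their 250 bases before the start of the gene are shown for this known regulation. All were low in regular libraries and higher with both media, as were other members that are not shown. Sequences are from RefSeq (GRCm38.p6, plus strand, 5′ to 3′), and capitals mark the AP-1 letters TGANTCA and the ETS (PEA3) letters AGGAAG, searched on both strands, where no 2 matches overlap.
Mmp3 chr9:7445572-7445821: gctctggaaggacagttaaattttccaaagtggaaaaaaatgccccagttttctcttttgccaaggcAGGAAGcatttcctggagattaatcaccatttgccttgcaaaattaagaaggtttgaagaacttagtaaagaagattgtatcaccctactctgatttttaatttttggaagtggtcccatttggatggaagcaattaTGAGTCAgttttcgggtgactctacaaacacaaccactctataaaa
Mmp13 chr9:7272264-7272513: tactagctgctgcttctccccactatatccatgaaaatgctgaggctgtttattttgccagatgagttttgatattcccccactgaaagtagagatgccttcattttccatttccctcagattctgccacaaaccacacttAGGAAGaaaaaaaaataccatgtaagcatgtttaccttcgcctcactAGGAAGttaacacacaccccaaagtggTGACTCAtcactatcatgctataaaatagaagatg
Plaur chr7:24462233-24462482: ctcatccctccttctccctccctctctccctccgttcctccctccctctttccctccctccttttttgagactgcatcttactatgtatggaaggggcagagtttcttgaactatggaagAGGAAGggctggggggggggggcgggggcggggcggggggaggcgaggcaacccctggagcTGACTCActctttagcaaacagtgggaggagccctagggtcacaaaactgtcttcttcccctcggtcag
Timp1 chrX:20869916-20870165: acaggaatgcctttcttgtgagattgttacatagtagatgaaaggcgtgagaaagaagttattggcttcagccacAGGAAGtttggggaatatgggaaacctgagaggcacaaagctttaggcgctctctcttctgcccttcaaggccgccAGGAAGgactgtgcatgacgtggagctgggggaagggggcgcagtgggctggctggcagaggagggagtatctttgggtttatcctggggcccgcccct

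The AP-1 letters begin 46 bases before the start in Mmp3, 35 in Mmp13 and 69 in Plaur, and the Timp1 window holds none. The ETS letters begin 183 bases before the start in Mmp3, 109 and 62 in Mmp13, 130 in Plaur, and 175 and 99 in Timp1. RefSeq windows of 250 bases before to 50 after the start were found for 25 of the 38 members. These members have 28 windows in all. The AP-1 letters were in 4 of the 28 windows (Mmp3, Mmp13, Plaur and Adam19), and in 7.8% of all 32851 promoters. The ETS letters were in 11 of the 28 windows and in 35.4% of all promoters. Other members with a window also fell with regular differentiation and were higher with both media. Of these, Adam8, Adamts1, Adamts14, Htra1, Mmp23 and Timp2 held neither set of letters, and Adam10, Mmp14 and Timp3 held the ETS letters only. A match describes letters and shows no binding, and no match says only that these letters are not in the window.

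Mmp11, or stromelysin-3, and Mmp19 rose with regular differentiation and were higher again with each conditioned medium. Mmp11 was at 92.5, 102.0 and 68.9 CPM before differentiation, 102.4, 103.7 and 119.3 CPM in the regular group, 208.6, 206.6 and 195.2 CPM under WT CM and 257.6, 242.7 and 214.2 CPM under KO CM. Its libraries were ordered by group without overlap, from undifferentiated to regular, WT CM and KO CM. The rise with regular differentiation, 0.32 ± 0.12 (edgeR adjusted p = 0.0193), was lost without undifferentiated replicate 3 at 0.11 (adjusted p = 0.482), without regular replicate 2 or 3 (edgeR adjusted p = 0.0685 and 0.118), with total counts at 0.16 (adjusted p = 0.242), without the filter on low counts (edgeR adjusted p = 0.0557) and with DESeq2 (adjusted p = 0.0801). Mmp11 was higher than in the regular group by 0.90 ± 0.11 with WT CM and 1.13 ± 0.11 with KO CM (edgeR adjusted p at most 3.52e-09). It was above undifferentiated cells by 1.22 ± 0.11 and 1.45 ± 0.11 (edgeR adjusted p at most 7.95e-13).

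Mmp19, a secreted Mmp that acts on basement membrane proteins, was at 74.9, 86.4 and 76.6 CPM before differentiation, 115, 122 and 115 CPM in the regular group, 174, 166 and 195 CPM under WT CM and 211, 216 and 209 CPM under KO CM. It was likewise ordered by group without overlap. The log2 difference was 0.58 ± 0.11 with regular differentiation, 0.61 ± 0.10 for WT CM and 0.85 ± 0.10 for KO CM against regular, and 1.18 ± 0.10 and 1.42 ± 0.11 for the 2 media against undifferentiated cells (edgeR adjusted p at most 1.16e-05). The opposite-strand gene Tmem198b has exons over the last 500 bases of Mmp19, so this count is uncertain. Mmp23, a membrane-linked Mmp, was at 187, 170.0 and 211 CPM before differentiation, 154, 158 and 156 CPM in the regular group, 235, 204 and 208 CPM under WT CM and 253, 236 and 235 CPM under KO CM. The regular libraries were lowest, WT CM overlapped undifferentiated cells, and KO CM was above them. It fell by 0.28 ± 0.10 with regular differentiation and was higher by 0.46 ± 0.10 with WT CM and 0.62 ± 0.10 with KO CM (edgeR adjusted p at most 0.0112). KO CM was 0.34 ± 0.10 above undifferentiated cells, a call lost with total counts at 0.06 (adjusted p = 0.612). Mmp28, or epilysin, was not tested and had 1, 1 and 2 UMIs before differentiation, 2, 2 and 2 in the regular group, 6, 4 and 2 under WT CM and 0, 1 and 2 under KO CM.

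Plat and Plaur, both of the plasminogen system, fell with regular differentiation and were higher with each medium than in the regular group. Plat (chr8:22757727-22782844, plus strand), or tissue plasminogen activator, was at 57.9, 76.5 and 72.0 CPM before differentiation, 8.23, 8.19 and 5.96 CPM in the regular group, 68.2, 55.4 and 64.3 CPM under WT CM and 98.1, 104 and 114 CPM under KO CM. Every regular library was below every library of the other groups, and KO CM was above the rest. Plat fell by 3.18 ± 0.20 with regular differentiation and was higher than in the regular group by 3.05 ± 0.21 with WT CM and 3.80 ± 0.20 with KO CM (edgeR adjusted p at most 1.28e-16). WT CM differed from undifferentiated cells by -0.13 ± 0.14 and KO CM by 0.62 ± 0.14 (edgeR adjusted p = 0.000232). Plaur, which holds urokinase at the cell surface, was at 16.1 ± 5.12 CPM before differentiation, 1.68 ± 0.719 CPM in the regular group, 11.3 ± 1.41 CPM under WT CM and 12.3 ± 4.50 CPM under KO CM (mean ± SD, n = 3). Its log2 differences were -3.03 ± 0.41 with regular differentiation and 2.54 ± 0.44 and 2.64 ± 0.47 for WT CM and KO CM against regular (edgeR adjusted p at most 9.48e-06).

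Bmp1 (chr14:70474558-70520234, minus strand), the procollagen C-proteinase, was at 200.3, 209 and 184 CPM before differentiation, 50.3, 53.0 and 44.1 CPM in the regular group, 145, 156 and 156 CPM under WT CM and 175, 195 and 198 CPM under KO CM. Regular libraries were again lowest, WT CM lay between, and KO CM overlapped undifferentiated cells. It fell by 2.0 ± 0.11 with regular differentiation and was higher by 1.63 ± 0.11 with WT CM and 1.94 ± 0.12 with KO CM (edgeR adjusted p at most 3.34e-16). WT CM was lower than undifferentiated cells, at -0.37 ± 0.10 (edgeR adjusted p = 0.00121) and KO CM differed by -0.06 ± 0.10. Htra1, a secreted serine protease, was at 8.72 ± 3.01 CPM before differentiation, 2.70 ± 1.07 CPM in the regular group, 8.28 ± 2.34 CPM under WT CM and 12.8 ± 1.45 CPM under KO CM (mean ± SD, n = 3). Its differences were -1.48 ± 0.42 with regular differentiation, 1.43 ± 0.42 with WT CM and 2.08 ± 0.42 with KO CM against regular (edgeR adjusted p at most 0.00680).

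Among 10 Adamts genes, 6 fell and 3 rose with regular differentiation, and against regular differentiation 5 were higher and 1 lower with WT CM and 5 higher and 3 lower with KO CM. The share of Adamts genes that rose was near the 29.6% of all genes, of which 28% fell. Against regular 17.2% of all genes were higher and 15.4% lower with WT CM, and 22.2% and 21% with KO CM. Adamts1 (chr16:85793827-85803113, minus strand), which cuts the proteoglycans versican and aggrecan, was at 1276, 1194 and 1438 CPM before differentiation, 322, 320.4 and 351 CPM in the regular group, 1153, 1150.4 and 1309.7 CPM under WT CM and 1800.2, 1705 and 1841 CPM under KO CM. The regular libraries lay far below the others, WT CM overlapped undifferentiated cells, and KO CM was highest without overlap. It fell by 1.98 ± 0.09 with regular differentiation and was higher by 1.86 ± 0.09 with WT CM and 2.43 ± 0.09 with KO CM (edgeR adjusted p at most 1.90e-22). Above undifferentiated cells KO CM was 0.45 ± 0.08 (edgeR adjusted p = 1.24e-05), which was lost with total counts at 0.17 (adjusted p = 0.0809), and WT CM differed by -0.11 ± 0.08.

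Adamts4, an aggrecanase, was at 40.9, 35.4 and 46.8 CPM before differentiation, 14.6, 15.6 and 12.5 CPM in the regular group, 49.1, 48.3 and 36.6 CPM under WT CM and 45.6, 56.8 and 43.2 CPM under KO CM. Only the regular libraries stood apart, below the rest. It fell by 1.52 ± 0.20 and was higher by 1.61 ± 0.20 with WT CM and 1.73 ± 0.21 with KO CM than in the regular group (edgeR adjusted p at most 1.43e-08). Adamts7, which cleaves cartilage oligomeric matrix protein, was at 8.61 ± 2.00 CPM before differentiation, 2.02 ± 1.23 CPM in the regular group, 7.21 ± 0.250 CPM under WT CM and 11.6 ± 0.684 CPM under KO CM (mean ± SD, n = 3). It fell by 2.05 ± 0.45 with regular differentiation and was higher than regular by 1.77 ± 0.47 with WT CM and 2.46 ± 0.46 with KO CM (edgeR adjusted p at most 0.00233). The opposite-strand gene Tbc1d2b covers 122 of its last 500 bases, so Adamts7 is uncertain.

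The procollagen N-proteinases Adamts2 and Adamts14 were higher with both media than in any other group. Adamts2 was at 4.04 ± 1.47 CPM before differentiation, 4.43 ± 3.45 CPM in the regular group, 14.4 ± 1.49 CPM under WT CM and 23.8 ± 3.69 CPM under KO CM (mean ± SD, n = 3). It differed by 0.14 ± 0.46 with regular differentiation, and was higher by 1.64 ± 0.36 with WT CM and 2.37 ± 0.35 with KO CM than in the regular group (edgeR adjusted p at most 0.000238), or by 2.36 and 3.09 without regular replicate 3. Against undifferentiated cells it was higher by 1.78 ± 0.36 and 2.51 ± 0.36 (edgeR adjusted p at most 6.93e-05). Adamts14 was at 12.2 ± 2.41 CPM before differentiation, 1.69 ± 1.13 CPM in the regular group, 18.5 ± 4.58 CPM under WT CM and 21.7 ± 1.80 CPM under KO CM (mean ± SD, n = 3). It fell by 2.77 ± 0.43 with regular differentiation and was higher by 3.43 ± 0.39 with WT CM and 3.62 ± 0.41 with KO CM (edgeR adjusted p at most 3.75e-07), or -3.36, 4.03 and 4.22 without regular replicate 3. Above undifferentiated cells it was 0.67 ± 0.26 with WT CM and 0.85 ± 0.28 with KO CM (edgeR adjusted p = 0.0315 and 0.0116). The WT CM call was lost without undifferentiated replicate 1 or 3, regular replicate 2 or WT CM replicate 3 (edgeR adjusted p = 0.0844, 0.183, 0.0507 and 0.292). The KO CM call was lost without undifferentiated replicate 3 (edgeR adjusted p = 0.0828). With total counts both were lost (edgeR adjusted p = 0.136 and 0.0884), as they were with DESeq2 (adjusted p = 0.159 and 0.061). That of WT CM was also lost without the filter on low counts, in a fit of 2 groups (edgeR adjusted p = 0.0517 and 0.0529) and with RLE size factors.

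Adamts10 and Adamts6, relatives that act on fibrillin microfibrils, fell with regular differentiation and did not pass the test with either medium against regular. Adamts10 was at 40.3, 43.2 and 44.7 CPM before differentiation, 17.4, 24.9 and 19.1 CPM in the regular group, 26.6, 24.5 and 28.2 CPM under WT CM and 24.8, 16.7 and 29.8 CPM under KO CM. Undifferentiated libraries were above all others. The fall was -1.0 ± 0.19 (edgeR adjusted p = 1.25e-05), and the differences from the regular group were 0.32 ± 0.20 with WT CM and 0.20 ± 0.23 with KO CM. Against undifferentiated cells both media were lower, at a log2 difference of -0.68 ± 0.18 and -0.81 ± 0.20 (edgeR adjusted p at most 0.00157). Adamts6 was at 13.03 ± 2.63 CPM before differentiation, 2.15 ± 1.36 CPM in the regular group, 5.45 ± 3.20 CPM under WT CM and 4.33 ± 0.869 CPM under KO CM (mean ± SD, n = 3), with differences of -2.50 ± 0.45 for regular, -1.37 ± 0.38 for WT CM and -1.55 ± 0.45 for KO CM against undifferentiated cells (edgeR adjusted p at most 0.00433). Without regular replicate 2 the first was -3.16, and without WT CM replicate 3 the second was -0.84 (adjusted p = 0.0714).

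The Adamts-like genes encode relatives with no protease domain. Adamtsl4, a fibrillin-binding member, was at 17.6, 19.8 and 18.5 CPM before differentiation, 27.4, 24.6 and 22.1 CPM in the regular group, 25.9, 33.5 and 37.9 CPM under WT CM and 47.6, 37.9 and 60.4 CPM under KO CM. Undifferentiated libraries were lowest and the CM groups overlapped. It was 1.02 ± 0.20 above regular with KO CM, and above undifferentiated cells by 0.83 ± 0.20 with WT CM and 1.41 ± 0.21 with KO CM (edgeR adjusted p at most 0.000778). Adamtsl5 was at 9.43 ± 0.618 CPM before differentiation, 4.34 ± 1.25 CPM in the regular group, 6.25 ± 1.09 CPM under WT CM and 11.2 ± 1.92 CPM under KO CM (mean ± SD, n = 3). It fell by 1.06 ± 0.37 with regular differentiation (edgeR adjusted p = 0.0125), a call lost without regular replicate 3 at -0.85 (adjusted p = 0.0688), and was 1.29 ± 0.39 higher than regular with KO CM (edgeR adjusted p = 0.00627).

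A smaller set rose with regular differentiation and was lower with KO CM than in the regular group, some of them also with WT CM. Of the tested members, 20% rose with regular differentiation, against 29.6% of all genes. Against regular, 14.3% of members were lower with KO CM and 8.57% with WT CM, where 21% and 15.4% of all genes were. The member shares were thus below those of all genes, and the share of genes that did both was not computed. Adam12 (chr7:133883199-134232146, minus strand), also called meltrin alpha and linked in mice to fat and muscle formation, was at 1.13, 2.83 and 1.54 CPM before differentiation, 32.0, 31.2 and 39.4 CPM in the regular group, 21.8, 22.5 and 25.6 CPM under WT CM and 18.8, 12.2 and 8.63 CPM under KO CM. All 4 groups were separate, with undifferentiated cells lowest and regular libraries highest. It rose by 4.22 ± 0.34 with regular differentiation, was lower than regular, at a log2 difference of -0.53 ± 0.20 with WT CM and -1.39 ± 0.25 with KO CM, and was still above undifferentiated cells by 3.68 ± 0.36 and 2.82 ± 0.45 (edgeR adjusted p at most 0.0371). The WT CM call against regular was lost without regular replicate 1 or 3 or WT CM replicate 1 or 2 (edgeR adjusted p = 0.0501, 0.186, 0.0935 and 0.0899) and with DESeq2 (adjusted p = 0.113).

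Adam15, a widely expressed member that binds integrins, was at 103, 109 and 103 CPM before differentiation, 223, 223 and 229 CPM in the regular group, 199, 189 and 178 CPM under WT CM and 165, 166 and 178 CPM under KO CM. Undifferentiated libraries were lowest, regular ones highest, and the CM groups overlapped between them. It rose by 1.1 ± 0.09 and was lower than regular, at a log2 difference of -0.26 ± 0.09 with WT CM (edgeR adjusted p = 0.0220) and -0.40 ± 0.09 with KO CM (edgeR adjusted p = 0.000467). The former was lost without regular replicate 2 or 3 or WT CM replicate 3 (edgeR adjusted p = 0.0682, 0.0698 and 0.114). Both media were above undifferentiated cells, by 0.84 ± 0.10 and 0.70 ± 0.10 (edgeR adjusted p at most 1.83e-07).

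Adamts15, Adamts9 and Adamts12 completed this set at low levels. Adamts15, which cuts versican, had 0, 0 and 2 UMIs in undifferentiated libraries, 18, 48 and 30 in regular ones, 13, 19 and 25 with WT CM and 4, 8 and 15 with KO CM. The regular group was above the undifferentiated one by a ratio of 46.0 (95% counting interval 12.4 to 386), with edgeR adjusted p = 3.08e-11, and both UMIs of the latter came from replicate 3. The ratios of the media to undifferentiated cells were 27.6 for WT CM (7.29 to 233) and 21.7 for KO CM (5.46 to 188). Without that library the fitted log2 differences from undifferentiated cells, which are no bound, were 7.78 for regular, 7.06 for WT CM and 6.71 for KO CM, against 5.26, 4.53 and 4.18 with it. Against regular, Adamts15 was lower, at a log2 difference of -0.73 ± 0.29 with WT CM (edgeR adjusted p = 0.0451) and -1.08 ± 0.34 with KO CM (edgeR adjusted p = 0.00839). The former was lost on leaving out any single library of the regular or WT CM groups (edgeR adjusted p = 0.0551 to 0.159) and with DESeq2 (adjusted p = 0.133), and the latter without KO CM replicate 1 (edgeR adjusted p = 0.0853).

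Adamts9, another versican-cleaving enzyme, was at 2.84 ± 1.296 CPM before differentiation, 14.8 ± 1.64 CPM in the regular group, 9.95 ± 1.42 CPM under WT CM and 7.29 ± 3.48 CPM under KO CM (mean ± SD, n = 3). It rose by 2.40 ± 0.38 and was lower than regular, at a log2 difference of -0.97 ± 0.35 with KO CM (edgeR adjusted p = 0.0213), a call lost without regular replicate 3 or KO CM replicate 2 (edgeR adjusted p = 0.0697 and 0.137) and with DESeq2 (adjusted p = 0.0608). Above undifferentiated cells it was 1.82 ± 0.41 with WT CM and 1.43 ± 0.48 with KO CM (edgeR adjusted p = 0.000290 and 0.0144), the second lost without undifferentiated replicate 1 or 3 or KO CM replicate 1 or 3 (edgeR adjusted p = 0.0673, 0.053, 0.0842 and 0.0756). Adamts12 was at 8.17 ± 2.48 CPM before differentiation, 26.6 ± 3.29 CPM in the regular group, 25.7 ± 4.01 CPM under WT CM and 15.6 ± 1.70 CPM under KO CM (mean ± SD, n = 3), rose by 1.75 ± 0.25 and was lower than regular, at a log2 difference of -0.79 ± 0.25 with KO CM (edgeR adjusted p at most 0.00775). Above undifferentiated cells it was 1.65 ± 0.25 with WT CM and 0.96 ± 0.31 with KO CM (edgeR adjusted p = 4.98e-07 and 0.00969), the second lost without undifferentiated replicate 1 or KO CM replicate 3 (edgeR adjusted p = 0.0642 and 0.0583) and with total counts (edgeR adjusted p = 0.0613).

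Among the Adam sheddases, Adam10, which releases Notch and other receptors, was at 41.4, 37.5 and 49.3 CPM before differentiation, 32.9, 28.1 and 17.3 CPM in the regular group, 42.3, 41.8 and 53.8 CPM under WT CM and 56.5, 33.4 and 62.8 CPM under KO CM. The regular libraries were lowest and the other groups overlapped. It fell by 0.75 ± 0.21 with regular differentiation and was higher by 0.86 ± 0.20 with WT CM and 1.01 ± 0.22 with KO CM (edgeR adjusted p at most 0.00218). Adam17, which releases tumour necrosis factor and epidermal growth factor receptor ligands, was at 42.0, 41.8 and 36.5 CPM before differentiation, 42.0, 40.1 and 49.5 CPM in the regular group, 64.1, 57.9 and 59.1 CPM under WT CM and 75.3, 56.8 and 86.3 CPM under KO CM. Undifferentiated and regular libraries overlapped, at a log2 difference of 0.13 ± 0.16, and both CM groups were above them. Against regular it was higher by 0.46 ± 0.15 with WT CM and 0.76 ± 0.16 with KO CM (edgeR adjusted p = 0.0155 and 0.000109). The WT CM call was lost without regular replicate 2 or WT CM replicate 1 (edgeR adjusted p = 0.113 and 0.054) and with DESeq2 (adjusted p = 0.0819). Above undifferentiated cells it was 0.59 ± 0.15 and 0.89 ± 0.16 (edgeR adjusted p at most 0.00137). The opposite-strand gene Iah1 covers 311 of the last 500 bases of Adam17, so its count is uncertain.

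Adam9, a further membrane sheddase, was at 141, 132 and 136 CPM before differentiation, 105, 89.3 and 91.8 CPM in the regular group, 196, 186 and 206 CPM under WT CM and 232, 219 and 214 CPM under KO CM. The 4 groups were separate, from regular through undifferentiated and WT CM to KO CM. It fell by 0.53 ± 0.10, was higher than regular by 1.06 ± 0.10 with WT CM and 1.23 ± 0.10 with KO CM, and was above undifferentiated cells by 0.53 ± 0.09 and 0.70 ± 0.10 (edgeR adjusted p at most 1.83e-05). Adam8, known best from white blood cells, was at 25.5, 29.8 and 23.6 CPM before differentiation, 4.57, 1.17 and 1.19 CPM in the regular group, 24.5, 26.4 and 20.7 CPM under WT CM and 27.7, 31.2 and 29.0 CPM under KO CM. The regular libraries were far below the rest, which overlapped, except that KO CM was above WT CM. It fell by 3.73 ± 0.35 and was higher by 3.59 ± 0.35 with WT CM and 3.90 ± 0.36 with KO CM (edgeR adjusted p at most 1.56e-11), or -4.38, 4.24 and 4.54 without regular replicate 1. Gm16201 covers 46 of its last 500 bases on the opposite strand, so it is uncertain.

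Adam19, or meltrin beta, was at 8.57 ± 0.656 CPM before differentiation, 2.96 ± 1.13 CPM in the regular group, 2.85 ± 0.926 CPM under WT CM and 5.63 ± 1.25 CPM under KO CM (mean ± SD, n = 3). It fell by 1.58 ± 0.43 with regular differentiation and was lower than undifferentiated cells with WT CM, at -1.57 ± 0.43 (edgeR adjusted p at most 0.00205), while KO CM differed from regular by 0.98 ± 0.52. The opposite-strand gene Gm16033 covers 88 of its last 500 bases, so it too is uncertain. Adam23, a member with no protease activity, was at 3.68 ± 2.31 CPM before differentiation, 6.68 ± 4.01 CPM in the regular group, 19.4 ± 2.33 CPM under WT CM and 17.0 ± 6.33 CPM under KO CM (mean ± SD, n = 3). It differed by 1.0 ± 0.46 with regular differentiation, and was higher than regular by 1.36 ± 0.33 with WT CM and 1.21 ± 0.36 with KO CM (edgeR adjusted p at most 0.00647), or by 2.15 and 1.99 without regular replicate 2. The KO CM call was lost without KO CM replicate 3, at 0.86 (adjusted p = 0.124). Above undifferentiated cells it was 2.37 ± 0.38 with WT CM and 2.21 ± 0.42 with KO CM (edgeR adjusted p at most 3.89e-05). Adam33 had 5, 0 and 1 UMIs before differentiation, 1, 0 and 1 in the regular group, 5, 1 and 3 under WT CM and 1, 3 and 7 under KO CM, and was tested only without the filter on low counts, where KO CM against regular gave 2.93 ± 1.03 (edgeR adjusted p = 0.0185).

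KO CM and WT CM differed in 10 members, which sets the media of p53 KO and p53 WT cancer cells against each other. The sample labels give no number of cancer cell clones or medium batches per genotype. The p53 genotype therefore cannot be told apart from clone or medium batch. The inhibitors Timp2 and Timp1 were higher with KO CM than with WT CM by 0.86 ± 0.10 and 0.73 ± 0.10 (edgeR adjusted p = 4.25e-09 and 6.15e-07). The proteases Mmp14, Mmp2 and Adamts1 were higher by 0.46 ± 0.09, 0.42 ± 0.08 and 0.56 ± 0.08 (edgeR adjusted p = 0.000239, 0.000253 and 1.54e-06), and Plat by 0.75 ± 0.14 (edgeR adjusted p = 9.64e-05). For each of these 6 genes every KO CM library was above every WT CM library, and no call was lost on leaving out any single library. All 6 were already called on these libraries, so the separation is no further support. Its share over all genes was not computed. Adipocyte markers were lower in KO CM over the same libraries, with all 6 called, and 3 of 4 tested preadipocyte markers were higher. Their part was not tested.

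Mmp9 was higher with KO CM by 2.19 ± 0.57 (edgeR adjusted p = 0.00740) on 12, 6 and 13 UMIs against 3, 1 and 7, and by 2.80 without WT CM replicate 3. Bmp1 was higher by 0.31 ± 0.10 (edgeR adjusted p = 0.0308), a call lost without WT CM replicate 1 or 2 or KO CM replicate 2 or 3 (edgeR adjusted p = 0.101, 0.0525, 0.094 and 0.15), with total counts (edgeR adjusted p = 0.127) and with DESeq2 (adjusted p = 0.0947). Adamtsl4 was higher by 0.59 ± 0.19 with overlapping libraries (edgeR adjusted p = 0.0304), lost without WT CM replicate 1 or 2 or KO CM replicate 1 or 3 (edgeR adjusted p = 0.137, 0.0593, 0.0521 and 0.351), with total counts (edgeR adjusted p = 0.0754) and with DESeq2 (adjusted p = 0.106). Adam12 was lower, at a log2 difference of -0.86 ± 0.27 (edgeR adjusted p = 0.0271), lost without WT CM replicate 3 or KO CM replicate 2 or 3 (edgeR adjusted p = 0.0952, 0.0799 and 0.273) and with DESeq2 (adjusted p = 0.107). The other 25 tested members ranged from -0.69 ± 0.25 for Adamts12 to 0.98 ± 0.52 for Adam19 and did not pass the test, which does not show that the media acted alike on them. Timp3 differed by 0.16 ± 0.26, Mmp3 by 0.06 ± 0.43 and Mmp13 by -0.35 ± 0.41.

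**Figure D3:**
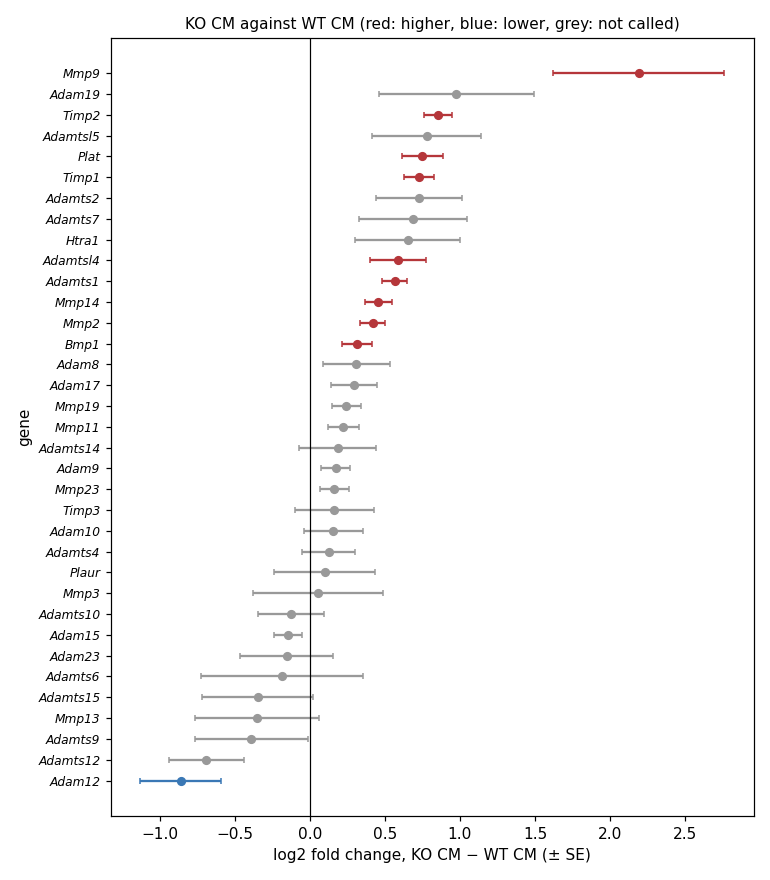
Log2 difference of KO CM minus WT CM with its SE for the tested members, with called members marked. Mmp9 at 2.19, Timp2 at 0.86, Plat at 0.75 and Timp1 at 0.73 lie above 0 and Adam12 at -0.86 below it.

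Summed over each class, Timp levels were 787 ± 5.48 CPM before differentiation, 156.5 ± 26.2 CPM in the regular group, 584 ± 10.4 CPM under WT CM and 1005 ± 37.7 CPM under KO CM (SD, n = 3). Mmp levels were 1609.5 ± 74.1, 1050.5 ± 49.8, 1959.8 ± 52.7 and 2527 ± 183 CPM in the same order. The ratio of the Timp sum to the Mmp sum was 0.490 ± 0.0263, 0.148 ± 0.0177, 0.298 ± 0.00474 and 0.398 ± 0.0159. It was thus lowest after regular differentiation and, with both media, stayed below undifferentiated cells, with no overlap between groups. Adamts sums were 1436 ± 131, 435 ± 22.0, 1368 ± 81.6 and 1947 ± 72.4 CPM, and Adam sums were 366 ± 0.431, 437 ± 11.1, 562 ± 15.3 and 584 ± 36.3 CPM. Of these 4 sums, the Adam sum alone was higher after regular differentiation than before it. A sum is led by its most counted genes, RNA is not enzyme activity, and no test was made on these sums.

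**Figure D4:**
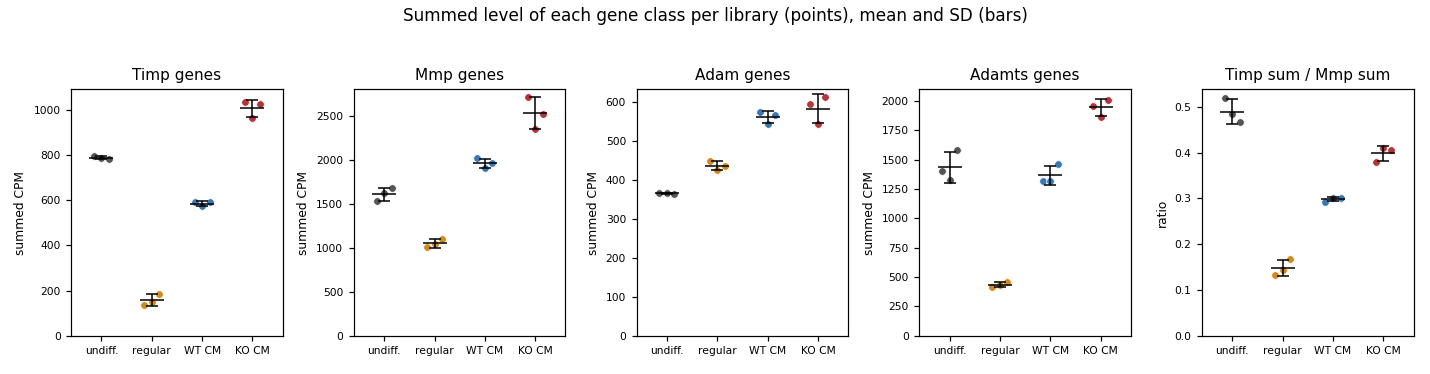
Summed level in CPM of the Timp, Mmp, Adam and Adamts genes per library (points) by group, with mean and SD, and the ratio of the Timp to the Mmp sum. Mean Timp sums are 787 CPM before differentiation, 156.5 CPM in the regular group and 1005 CPM under KO CM, while mean Adam sums lie between 366 and 584 CPM.

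Partners of these enzymes were counted by the same calls, over lists compiled with earlier results of these data known. Of all genes, 28% fell and 29.6% rose with regular differentiation. Against regular, 17.2% were higher and 15.4% lower with WT CM, and 22.2% were higher and 21% lower with KO CM. Of 7 tested plasminogen partners 5 fell with regular differentiation and none rose, and against regular 6 were higher and none lower with each medium (median log2 -0.47, 0.90 and 0.73). Thbs1, the matrix glycoprotein thrombospondin-1, changed by -3.40 ± 0.11, 3.12 ± 0.11 and 3.78 ± 0.11 in these comparisons. Serpine2, an inhibitor of plasminogen activators and thrombin, changed by -2.80 ± 0.13, 3.13 ± 0.13 and 3.83 ± 0.13 (edgeR adjusted p at most 4.20e-23). Both were also higher with KO CM than WT CM, by 0.66 ± 0.09 and 0.70 ± 0.09 (edgeR adjusted p at most 3.92e-07).

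Of 10 tested other protease inhibitors 6 fell and none rose with regular differentiation, and 9 were higher with WT CM and 8 with KO CM than in the regular group, with none lower. Slpi, an inhibitor of neutrophil elastase, was higher by 4.68 ± 0.17 and 5.31 ± 0.17, and Serping1, the C1 inhibitor, by 4.28 ± 0.50 with KO CM (edgeR adjusted p at most 9.28e-21 and 9.42e-10). KO CM exceeded WT CM for 5 of the 10, among them Serping1 by 2.03 ± 0.37 and Reck, a membrane-anchored Mmp inhibitor, by 1.15 ± 0.23 (edgeR adjusted p at most 0.000236). Of 7 tested activators and clearance receptors 4 fell and 1 rose with regular differentiation and 5 were higher with each medium than in the regular group. Among them Mrc2, a collagen uptake receptor, fell by 1.34 ± 0.17, and Ctsb, the protease cathepsin B, was higher by 1.38 ± 0.27 with WT CM (edgeR adjusted p at most 2.57e-06 and 4.80e-05).

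Of 10 other extracellular proteases and their enhancers 4 fell and 2 rose with regular differentiation, where 28% and 29.6% of all genes did, and against regular 4 were higher and 1 lower with WT CM and 5 higher and 1 lower with KO CM. Aebp1, a carboxypeptidase-like matrix protein, was higher by 2.77 ± 0.17 and 3.46 ± 0.16, and Pcolce2, a procollagen C-proteinase enhancer, was lower, at a log2 difference of -2.54 ± 0.48 and -2.24 ± 0.54 (edgeR adjusted p at most 0.000573). Of 8 regulators of Adam sheddases 3 fell and 2 rose with regular differentiation, and the tetraspanins Tspan5 and Tspan14, partners of Adam10, moved in opposite directions, by -1.28 ± 0.31 and 1.29 ± 0.15 (edgeR adjusted p at most 0.000395). With WT CM against regular 2 were higher and 1 lower, with KO CM 3 and 1. These counts of 8 regulators are near the shares of all genes given above.

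Of 12 tested substrates of Adam shedding 5 fell and 2 rose with regular differentiation, and 7 were higher with WT CM and 10 with KO CM than in the regular group. Ereg, a ligand released by Adam17, fell by 3.95 ± 0.52 with regular differentiation and was higher by 2.40 ± 0.65 with WT CM (edgeR adjusted p at most 0.00319). Of 20 matrix substrates 10 fell and 7 rose with regular differentiation, against 28% and 29.6% of all genes, whereas against regular 18 were higher with WT CM and 19 with KO CM, with none lower. Tnc, or tenascin C, changed by -3.88 ± 0.24 with regular differentiation and 3.59 ± 0.27 with KO CM against regular, and Dcn, the proteoglycan decorin, was higher by 3.56 ± 0.44 and 3.81 ± 0.44 (edgeR adjusted p at most 1.45e-15 and 0.000227). KO CM exceeded WT CM for 4 of 7 tested plasminogen partners, 1 of 7 activators and receptors and 4 of 10 other proteases. It did so for 1 of 8 sheddase regulators, 2 of 12 shedding substrates and 6 of 20 matrix substrates. None of the tested genes on these 7 lists was lower with KO CM than WT CM. Of all genes, 5.86% were higher and 6.62% lower. Because the lists were compiled with earlier results known, the contrast with all genes is a description and no test.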

How the data were processed

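RNA (30 ng per sample) went through MARS-seq, a pooled method that reads transcript 3′ ends, per the labels' protocols. The submitters' processing notes name cutadapt, HTSeq, DESeq2 and mm10, while the aligner is not given in the sources used here. The authors deposited raw, unnormalized UMI counts, per the file headers, and the authors' log2 fold changes and p-values for 6 comparisons. Its genes have at least 6 counts in their highest library, and 24 further columns of per-sample values were not used. Counts were tested with edgeR 4.0.16 (R 4.3.3): 9378 genes passed filterByExpr, TMM scaled the libraries, and all 12 entered 1 robust quasi-likelihood fit by group (common coefficient of variation 9.38%). Calls used Benjamini-Hochberg adjusted p under 0.05 over all genes. Each edgeR SE was derived from the test, as the absolute log2 difference divided by the square root of the quasi-likelihood F statistic. Limma 3.58.1 is a dependency of edgeR, and DESeq2 1.42.0 was an alternative. Floors of 3 counts and 95% counting intervals cover counting error only. Overlapping genes were taken from GENCODE vM21 (GRCm38). In the authors' deposited table, members higher and lower were 7 and 23, 23 and 1, 27 and 5, 7 and 0, 14 and 7, and 19 and 4 for regular against undifferentiated, WT CM against regular, KO CM against regular, KO CM against WT CM, and WT CM and KO CM against undifferentiated cells. Members called the same way by edgeR were 6 and 23, 23 and 1, 27 and 4, 7 and 0, 13 and 7, and 19 and 4 in that order.

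The members and lists were chosen with earlier results of these data known. Every member was to be accounted for, with values per library for members of at least 20 CPM over 12 libraries and those called between the media, and from each list at most the 2 largest called genes per direction and comparison. Alternatives were other scaling, no filter, a fit of 2 groups, a replicate block, DESeq2 and each library left out.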

Additional observations from a re-analysis of the deposited data

Results flagged for a closer look

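The 2 conditioned media, from p53 KO and p53 WT cancer cells, differed for 10 members by the direct edgeR test of KO CM against WT CM (log2 difference). Genotype cannot be told apart here from cancer cell clone or medium batch. The inhibitors differed by 0.86 (Timp2) and 0.73 (Timp1). Mmp9 differed by 2.19, Plat by 0.75, Adamts1 by 0.56, Mmp14 by 0.46, Mmp2 by 0.42 and Bmp1 by 0.31. Adamtsl4 differed by 0.59, and Adam12, the single member lower with KO CM, by -0.86. For Adamtsl4 the libraries of the 2 media overlapped, and for the others they did not. All 10 were called on these same libraries, so the separation is no further support, and its share over all genes was not computed. Without WT CM replicate 3, which stood apart from its group, Timp1 differed by 0.63, Timp2 by 0.94, Adamts1 by 0.63 and Plat by 0.78. Without it Adam12 was the one of these 10 that no longer passed the test, at -0.77 (edgeR adjusted p = 0.0952). Groups of 3 libraries are too small for a check of single outlying values.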

How the results depend on the processing

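Over 145 called differences of members and 18 alternatives, 2532 of 2610 values kept their direction and call, 78 kept direction and lost the call, and none changed sign. Leaving out 1 library gave 29 to 31, 24 to 27, 31 to 32, 7 to 11, 20 to 22 and 22 to 25 called members for regular against undifferentiated, WT CM against regular, KO CM against regular, KO CM against WT CM, WT CM against undifferentiated and KO CM against undifferentiated cells. Over all genes the same ranges were 4848 to 5540, 2526 to 3085, 3463 to 4186, 766 to 1201, 4108 to 4591 and 3536 to 4209. The lowest count of KO CM against WT CM, 766 in place of 1171, came without KO CM replicate 3, and the cause was not tested beyond the loss of 1 sample. DESeq2 called 29, 24, 31, 7, 20 and 23 members in the same order. Low counts limit the values of Mmp28, Adam33, Timp4, Mmp3, Mmp13, Mmp9 and Adamts15. Few UMIs in a single group also limit others. Adam12 had 9 in all before differentiation. Totals in the regular group were 9 for Adamts14, 10 for Plaur, 10 for Adam8, 11 for Adamts7, 12 for Adamts6 and 14 for Timp3.

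Replicate numbers are shared between groups, but same-numbered libraries did not deviate together, with correlations of -0.07 to 0.06 over 18 pairs, none above 0.1. With the replicate block 30, 26, 32, 10, 22 and 25 members were called, and the call it ended was Adamts15 with WT CM against regular (edgeR adjusted p = 0.0564).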
